A study of Mus musculus with 6 samples.

Results

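Chemokines, interleukins and their close relatives are the secreted signals by which tumour cells address leukocytes and each other, and 73 genes of this kind were followed in the mouse mammary tumour cell lines J110 and SSM3. The genes were chosen by symbol. They are those named Cxcl, Ccl, Cx3cl or Il with a number and at most a single further letter, plus the colony-stimulating factors Csf1, Csf2 and Csf3 and the cytokine Lif, leaving out Cxcl12. This gave 73 of the 52636 genes counted. The symbols set the membership, but this group of genes was proposed with earlier results of these data known, among them that Cxcl15 is seen only in SSM3. Cxcl15 is therefore described with no test, and counts over the members are given as descriptions. J110 cells come from mice that carry an AIB1 cDNA driven by the long terminal repeat of MMTV, a promoter active mainly in mammary epithelium. SSM3 cells come from mammary tumours of 129SvEv mice. Both were cultured with insulin and hydrocortisone, and SSM3 cells also with β-mercaptoethanol and transferrin and in more serum and more CO2, so that effects of line and culture cannot be told apart. Each group is a single established line with 3 biological replicates, so p-values measure the spread between cultures of that line.

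Chemokines are small proteins that bind receptors coupled to G proteins and guide leukocytes. Those of the CXC type with a Glu-Leu-Arg motif mainly attract neutrophils, those induced by interferon attract T cells, and most CC chemokines attract monocytes, lymphocytes or eosinophils. The interleukin-1 family signals through MyD88 and NF-κB, and most other interleukins through JAK kinases and STAT factors. In breast tumours these signals are known for shaping which leukocytes enter, and colony-stimulating factor 1 for sustaining macrophages.

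RNA was counted from its 3′ ends, with 4200785 to 5416305 counts per library. Levels are given as CPM, the count scaled by depth with TMM factors. A line was taken as at the floor for a gene when none of its libraries had more than 3 counts, which is 0.578 to 0.668 CPM, and floors and intervals cover counting error only. A ribosomal RNA locus took 15.1 to 17.2% of counts in J110 and 0.779 to 1.27% in SSM3, and leaving it out kept the counts of members called below. A few counts on genes that belong to the opposite line were seen in every library, mostly in J110 replicate 3, at 0.293% of that line's level over 39 genes, and in SSM3 replicate 2, at 0.389% over 24 genes. Ncoa3, the mouse gene of AIB1, had 110, 106 and 102 counts in J110 and 181, 199 and 186 in SSM3. Since the sources used here do not say whether the transcript of the AIB1 cDNA carries the counted 3′ end, and Ncoa3 shares 154 exon bases with Sulf2, these counts check no label. As for cell type, the keratin genes Krt8 and Krt18 had at least 4223 counts in each of the 6 libraries, whereas Epcam, which encodes an epithelial surface protein, had 2, 1 and 7 counts in J110 and 2376, 2404 and 2412 in SSM3. Cdh1, the gene of E-cadherin, had 21, 11 and 28 counts in J110 and 6019, 6369 and 7179 in SSM3. The sum of 5 endothelial markers was 158 to 181 CPM in J110, nearly all from Cdh5, and at most 0.425 CPM in SSM3, and its part in the results below was not tested.

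Of the 73 genes, 29 had no count in any library and 18 had counts but stayed at the floor in both lines. A further 10 exceeded 3 counts in a library without passing the filter on low counts, and 16 passed it. Leaving Cxcl15 aside, 15 members were tested with edgeR, adjusting over the 12284 genes that passed. An adjusted p below 0.05 was reached by 5 members that were higher in SSM3 and 8 that were lower, where 38.6% of all genes tested were called higher and 39.2% lower. The libraries of the lines did not overlap for 13 of the 15, as for 79.6% of all genes tested. Nothing is read from these shares, since a member that passes the filter through the line where it is high has to differ. The median log2 fold change of the 15, SSM3 relative to J110 here and throughout, was -1.39, and over all genes tested -0.014.

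**Figure D1:**
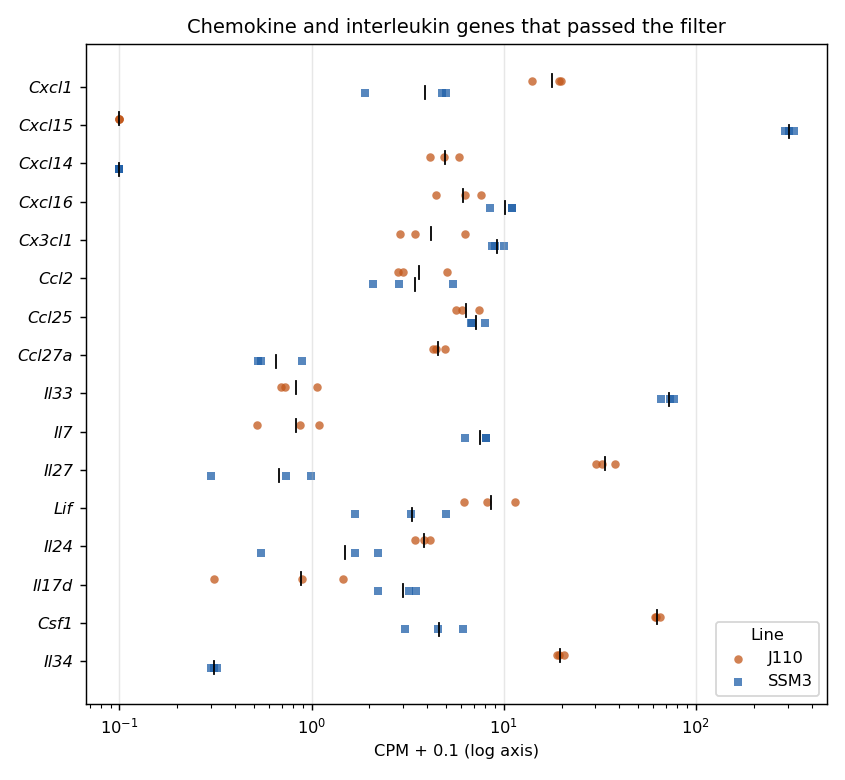
CPM plus 0.1 on a log axis for each of the 16 members that passed the filter, with 3 libraries labelled J110 (circles) and 3 labelled SSM3 (squares) and a vertical tick at the mean of each line. Cxcl15, Il33 and Il7 lie far to the right in SSM3, Csf1, Il27, Il34, Cxcl1 and Cxcl14 in J110, and the points of Ccl2 and Ccl25 overlap.

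Cxcl15 and Cxcl1, which had their counts mainly in different lines, lie in the cluster of CXC chemokine genes on chromosome 5 of GRCm38 (mm10), from the start of Cxcl5 at 90759360 to the end of Cxcl2 at 90905938. The 250 bases before the RefSeq start of 4 of its genes are shown, those of Cxcl15 and Cxcl1 and of Cxcl3 and Cxcl2, the member genes that lie next to them and for which no change is claimed. All lie on the forward strand and read 5′ to 3′, at chr5:90785851-90786100 for Cxcl3, chr5:90794284-90794533 for Cxcl15, chr5:90890995-90891244 for Cxcl1 and chr5:90903649-90903898 for Cxcl2. Capitals mark a spelling of the NF-κB motif on either strand, GGGA, then any 2 bases, then TTCC.
Cxcl3: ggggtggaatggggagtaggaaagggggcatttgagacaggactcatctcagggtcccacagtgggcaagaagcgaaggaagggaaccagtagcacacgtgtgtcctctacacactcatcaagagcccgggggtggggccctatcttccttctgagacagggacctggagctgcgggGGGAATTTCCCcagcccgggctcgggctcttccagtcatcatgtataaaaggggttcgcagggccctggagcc
Cxcl15: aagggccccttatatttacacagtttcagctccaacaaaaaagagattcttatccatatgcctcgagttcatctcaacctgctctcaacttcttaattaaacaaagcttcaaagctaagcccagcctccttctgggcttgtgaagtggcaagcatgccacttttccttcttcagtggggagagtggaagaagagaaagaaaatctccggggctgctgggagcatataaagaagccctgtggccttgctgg
Cxcl1: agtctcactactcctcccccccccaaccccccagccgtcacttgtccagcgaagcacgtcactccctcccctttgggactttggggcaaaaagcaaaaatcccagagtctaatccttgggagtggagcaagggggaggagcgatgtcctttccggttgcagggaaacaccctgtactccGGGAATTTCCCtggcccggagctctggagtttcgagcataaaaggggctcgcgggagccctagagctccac
Cxcl2: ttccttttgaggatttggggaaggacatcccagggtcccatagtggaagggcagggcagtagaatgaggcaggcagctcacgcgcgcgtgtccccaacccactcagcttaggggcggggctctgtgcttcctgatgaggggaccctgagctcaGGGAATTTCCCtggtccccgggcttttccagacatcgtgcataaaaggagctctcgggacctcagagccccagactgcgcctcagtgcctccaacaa

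The sequences of Cxcl3, Cxcl1 and Cxcl2 each held a pair of matches overlapping by all but 1 base, one on each strand, the first beginning 73, 71 and 97 bases before the start. That of Cxcl15 held no match in this window. A match was found in 1.21% of all 32851 upstream sequences available from RefSeq. Of the 52 members with such a sequence, 8 had a match, namely Ccl1, Csf1, Cxcl1, Cxcl2, Cxcl3, Cxcl10, Il6 and Il16. This spelling was chosen after several had been looked at. The other letters searched were TTCNNNGAA, the GAS element bound by STAT factors, in 3 members and 7.02% of all sequences, and GAAA, any 2 bases and GAAA, which resembles an interferon response element, in 5 and 2.98%. TGANTCA of AP-1 was found in 11 members and 6.75%, and TATAAA in 20 and 12.4%. A match describes letters, not a site in use.

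Cxcl15 (ENSMUSG00000029375, chromosome 5 from 90794534 to 90803067, forward strand) encodes lungkine, a CXC chemokine of mice that attracts neutrophils. Cxcl15 had no count in the 3 libraries of J110 and 1452, 1376 and 1540 counts in SSM3. The lines were fully apart. The SSM3 mean was 307 ± 15.6 CPM (SD, n = 3), at least 491-fold higher than in J110, taking 3 counts per library as the floor for J110. In such bulk libraries, fewer cells with a transcript and less of it per cell cannot be told apart. Gm43085, an unconfirmed transcript that begins just beyond the end of Cxcl15, had 27, 22 and 18 counts in SSM3 and none in J110.

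Cxcl1 (ENSMUSG00000029380, chromosome 5 from 90891241 to 90893115, forward strand) encodes a main neutrophil attractant of mice and starts 96.7 kb after the start of Cxcl15. It had 72, 98 and 95 counts in J110 and 21, 23 and 9 in SSM3. Every J110 library lay above every SSM3 library (log2 fold change -2.23, SE 0.28, adjusted p = 1.45e-06). Cxcl5, another neutrophil attractant, had 20, 9 and 7 counts in J110 and 3, 4 and 3 in SSM3, and did not pass the filter. Cxcl2, with the same role, had 1, 8 and 8 counts in J110 and 1, 1 and 2 in SSM3, so that its libraries touched, and Cxcl3 had a single count in each J110 library and none in SSM3. Between Cxcl5 and Cxcl3 lie Ppbp and Pf4, genes of platelet chemokines that the symbol rule does not take. Ppbp had 24, 15 and 19 counts in J110 and none in SSM3, and Pf4 had 16, 12 and 16 counts in J110 and none in SSM3. The 6 chemokine genes of the cluster other than Cxcl15 had their higher mean in J110. Of the members among them only Cxcl1 passed the filter, and Ppbp and Pf4 were added once their values were known. Nothing is therefore read about the cluster as a whole. Cxcr2, the neutrophil receptor gene for the Glu-Leu-Arg chemokines of the cluster, had 7, 20 and 13 counts in J110 and none in SSM3, and did not pass the filter.

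**Figure D2:**
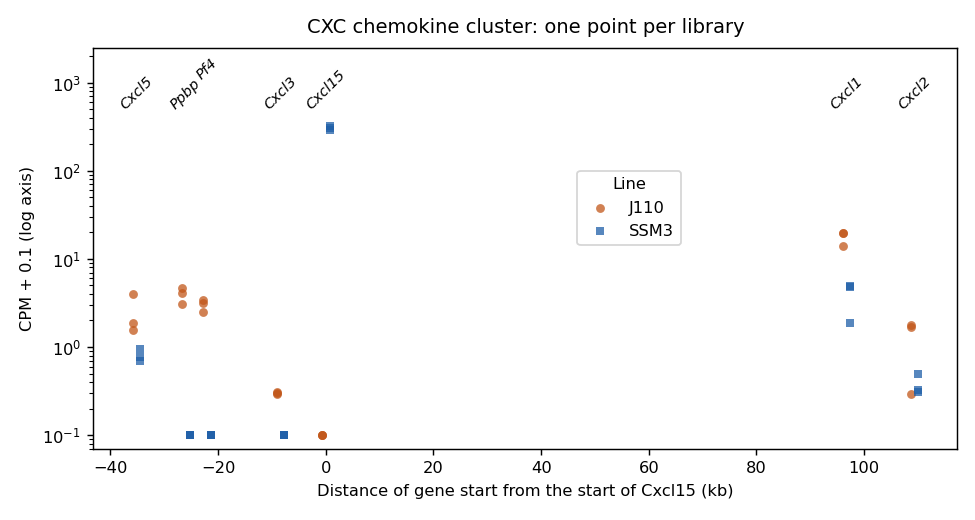
CPM plus 0.1 (log axis) of the 7 chemokine genes of the cluster against the distance of each gene's start from that of Cxcl15 in kb, with 1 point for each library labelled J110 (circles) or SSM3 (squares). Points at 0.1 are libraries with no count, and Cxcl15 is the gene whose SSM3 points lie on top.

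The CXC chemokines that interferon induces were at the floor or without counts in both lines. Cxcl9 and Cxcl11 had no count, and Cxcl10 had 1, 2 and 0 counts in J110 and 1, 0 and 0 in SSM3. Their receptor gene Cxcr3 had 2 counts in all. Cxcl11, annotated as a polymorphic pseudogene, shares 1582 exon bases with Gm2673, and Cxcl10 shares 133 with Art3, each on the opposite strand. How reads on such bases were treated is not given, so the low values of Cxcl10 and Cxcl11 are uncertain.

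Both chemokines with a membrane-bound form were higher in SSM3. Cxcl16 had 32, 22 and 36 counts in J110 and 49, 52 and 42 in SSM3, and its receptor gene Cxcr6 had 1 count in all. In CPM the lines did not overlap for Cxcl16, but its change was small (log2 fold change 0.75, SE 0.24, adjusted p = 0.00931). It lost the call without J110 replicate 2 (log2 fold change 0.55, adjusted p = 0.0562), where the alternatives to the processing spanned adjusted p-values of 0.00222 to 1. Cx3cl1, known as fractalkine, had 32, 14 and 16 counts in J110 and 40, 47 and 43 in SSM3, with no overlap (log2 fold change 1.15, SE 0.28, adjusted p = 0.00125). Its receptor gene Cx3cr1 went the other way, with 26, 14 and 32 counts in J110 and 1, 1 and 1 in SSM3, a ratio of 22.7 (95% exact binomial interval 7.47 to 113). Cxcl14, a chemokine of epithelia, had 21, 29 and 23 counts in J110 and none in SSM3, and was at least 7.28-fold lower there.

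Inflammatory CC chemokines were sparse. Ccl2, the main monocyte attractant, had 15, 25 and 13 counts in J110 and 24, 13 and 10 in SSM3. These values overlapped (log2 fold change -0.09, SE 0.38, adjusted p = 0.84), and the sign of the change differed between settings. Its receptor gene Ccr2 had 1 count in all. Ccl9 had 9, 3 and 8 counts in J110 and 0, 3 and 0 in SSM3, and Ccl8 had 3, 7 and 5 counts in J110 and none in SSM3. Ccl7 had 2, 2 and 6 counts in J110 and 3, 2 and 2 in SSM3, which overlapped, and the 6 counts of Ccl5 all fell in J110 replicate 2. Ccl17, a T cell attractant, went the other way, with 0, 0 and 1 counts in J110 and 2, 5 and 6 in SSM3. These 5 did not pass the filter. Ccr1, a receptor gene for several of them, had 34, 19 and 15 counts in J110 and none in SSM3, at least 6.71-fold lower there. Among other receptor genes for these chemokines, Ccr4 had 3 counts in all and Ccr3 none.

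Of the homeostatic CC chemokines, Ccl27a, an attractant of skin-homing T cells, had 25, 22 and 20 counts in J110 and 2, 2 and 4 in SSM3. The lines were apart (log2 fold change -2.93, SE 0.40, adjusted p = 4.2e-06), but the value is uncertain. Ccl27b, a near-identical copy, had no count, and how reads common to both were assigned is not given in the sources used here. Ccl27a also shares 8 exon bases with Il11ra1, a receptor gene that had 53, 32 and 49 counts in J110 and 7, 4 and 5 in SSM3. Ccl25, which guides T cells in thymus and gut, had 31, 28 and 35 counts in J110 and 30, 37 and 34 in SSM3, with overlap (log2 fold change 0.18, SE 0.23, adjusted p = 0.473). It shares 204 exon bases with Elavl1 on the opposite strand, and Elavl1 had 299 to 430 counts per library, so this value is uncertain as well. The receptor genes of these chemokines were at the floor, Ccr10 of Ccl27a with 2 counts in all and Ccr9 of Ccl25 with 7.

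Il33 was the interleukin with the largest fitted rise in SSM3 among the members tested. This nuclear cytokine of the interleukin-1 family is released by damaged epithelium and acts on Il1rl1, also called ST2. Its gene lies on chromosome 19, forward strand, from 29925114 to 29960718 (ENSMUSG00000024810). The J110 libraries held 5, 3 and 3 Il33 counts and the SSM3 libraries 297, 361 and 369. All SSM3 libraries lay far above all J110 libraries, at 72.1 ± 5.39 against 0.728 ± 0.205 CPM (SD, n = 3 each; log2 fold change 6.57, SE 0.20, adjusted p = 3.12e-14). The receptor gene Il1rl1 went the same way, with 2, 2 and 19 counts in J110 and 6085, 6589 and 7166 in SSM3 (log2 fold change 9.80, SE 0.23, adjusted p = 1.48e-15). The J110 library with the most Il1rl1 counts, replicate 3, was also the one with the most counts of genes from SSM3, and their part in this value was not tested. Il1rap, whose product ST2 needs to signal, had 6, 5 and 8 counts in J110 and none in SSM3, and did not pass the filter. In SSM3 the genes of the ligand and of its binding chain were thus counted, and that of the accessory chain was not detectable at this depth. Counts per gene do not tell forms of a transcript apart, so which form of Il1rl1 was counted is not known.

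Il18, made as a precursor that caspase-1 cuts, had 9, 7 and 11 counts in J110 and none in SSM3, and did not pass the filter. Its binding chain gene Il18r1 had 2, 6 and 6 counts in J110 and 1018, 1208 and 1469 in SSM3, so that ligand and binding chain had their higher counts in different lines (log2 fold change 8.08, SE 0.20, adjusted p = 1.78e-15). The accessory chain gene Il18rap fell, with 141, 108 and 122 counts in J110 and 5, 11 and 9 in SSM3 (log2 fold change -3.79, SE 0.24, adjusted p = 4.14e-10). Il18bp, the secreted inhibitor, was higher in SSM3 (log2 fold change 1.47, SE 0.11, adjusted p = 2.71e-09), but shares 80 exon bases with Numa1, which had more counts in every library, so its value is uncertain.

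Il1a had 2 counts in all, and Il1b had none. Their receptor gene Il1r1 was counted in both lines, with 39, 31 and 43 counts in J110 and 49, 50 and 65 in SSM3 (log2 fold change 0.61, SE 0.21, adjusted p = 0.0135). Il1rn, the natural antagonist of that receptor, had 0, 1 and 2 counts in J110 and 337, 455 and 491 in SSM3, a ratio of 452 (95% exact binomial interval 154 to 2190). Il1rl2, the receptor of the interleukin-36 group, had no count in J110 and 65, 59 and 67 in SSM3, at least 21.5-fold higher. Sigirr, an inhibitory receptor of the family, had 212, 189 and 160 counts in J110 and 77, 102 and 104 in SSM3 (log2 fold change -0.91, SE 0.14, adjusted p = 1.27e-05). Of the 10 receptors and antagonists of this family, 8 were tested, and 6 were called higher and 2 lower in SSM3. Over all genes tested the shares were 38.6% and 39.2%. As with the members, nothing is read from these counts.

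**Figure D3:**
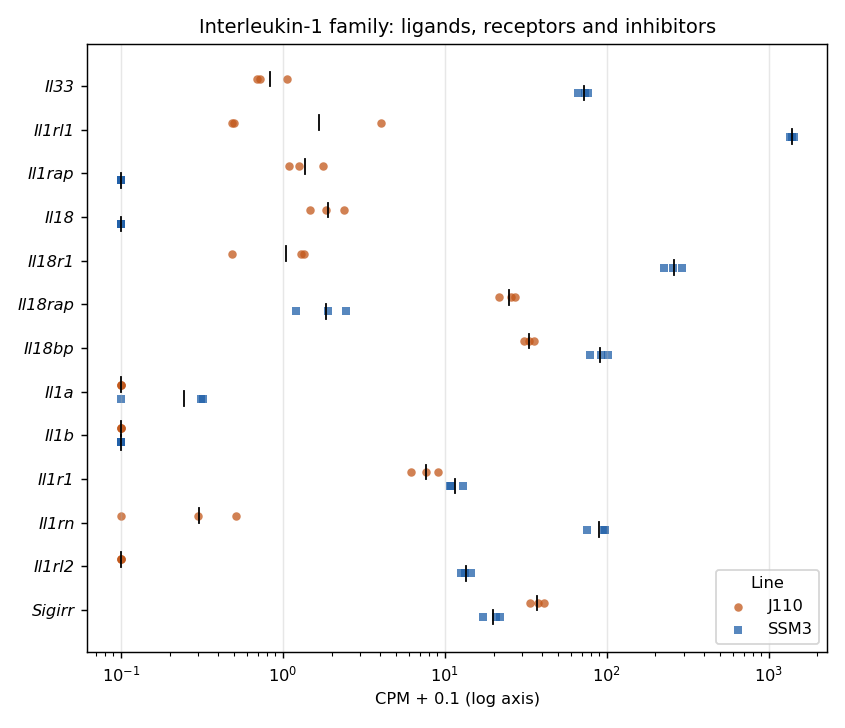
CPM plus 0.1 (log axis) of interleukin-1 family ligands, receptors and inhibitors in each library labelled J110 (circles) and SSM3 (squares), with ticks at the means. Points at 0.1 are libraries with no count. Il33, Il1rl1, Il18r1, Il1rn and Il1rl2 lie to the right in SSM3, while Il1rap, Il18 and Il18rap do so in J110.

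Il7, the survival factor of lymphocytes, had 4, 5 and 2 counts in J110 and 36, 29 and 40 in SSM3. The lines did not overlap (log2 fold change 3.29, SE 0.36, adjusted p = 3.05e-07). Il7 shares 105 exon bases with Gm16685, which had at most 7 counts in a library, and the receptor gene Il7r had no count. Il2rg, the common chain gene of the Il7 and Il4 receptors, had 7, 9 and 18 counts in J110 and 4, 5 and 4 in SSM3, and did not pass the filter. It shares 728 exon bases with Gm20489 on the same strand, so its low counts are uncertain. Il4, a cytokine of T helper cells and mast cells, had 9, 9 and 8 counts in J110 and 2, 3 and 1 in SSM3, without overlap but below the filter. The receptor gene Il4ra fell too, with 311, 235 and 284 counts in J110 and 80, 80 and 81 in SSM3 (log2 fold change -1.70, SE 0.13, adjusted p = 4.75e-09). Il13ra1, whose product pairs with the Il4ra chain outside leukocytes, rose, with 10, 17 and 10 counts in J110 and 593, 685 and 625 in SSM3 (log2 fold change 5.75, SE 0.16, adjusted p = 7.2e-15).

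Il27 (ENSMUSG00000044701, chromosome 7 from 126589010 to 126594941, reverse strand) encodes the p28 subunit of interleukin-27. It had 156, 191 and 155 counts in J110 and 4, 3 and 1 in SSM3 (log2 fold change -5.83, SE 0.28, adjusted p = 1.25e-11). This value is uncertain. Il27 shares 103 exon bases with Apobr on the opposite strand, and Apobr had 176, 213 and 178 counts in J110 and 6, 4 and 1 in SSM3. The counts of these neighbours ran side by side in the 6 libraries, and which gene the reads came from cannot be told apart. The receptor gene Il27ra had no count.

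Lif, a cytokine of the gp130 family, had 42, 31 and 54 counts in J110 and 22, 15 and 8 in SSM3, with no overlap (log2 fold change -1.41, SE 0.34, adjusted p = 0.00121). Its receptor chains went the other way. Lifr had 5, 4 and 2 counts in J110 and 21, 21 and 14 in SSM3 (log2 fold change 2.39, SE 0.41, adjusted p = 6.15e-05), and Il6st, which encodes gp130 itself, rose from 66.5 ± 5.92 to 173 ± 10.8 CPM (SD, n = 3 each; log2 fold change 1.38, SE 0.09, adjusted p = 5.66e-10). Il11 had 3, 2 and 2 counts in J110 and 3, 2 and 2 in SSM3, the same counts in both lines, and Il6 had none. Il6ra and Il11ra1, the genes of their binding chains, were both lower in SSM3, with log2 fold changes of -2.04 (SE 0.27, adjusted p = 3.13e-06) and -2.96 (SE 0.35, adjusted p = 7.82e-07).

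Il24, an interleukin-10 relative, had 21, 17 and 18 counts in J110 and 2, 10 and 8 in SSM3, with no overlap (log2 fold change -1.39, SE 0.40, adjusted p = 0.00429). Of its receptor chains, Il20rb rose, with 6, 6 and 7 counts in J110 and 17, 26 and 35 in SSM3 (log2 fold change 2.09, SE 0.35, adjusted p = 4.31e-05), and Il20ra and Il22ra1 had no count. Il17d, the member of its family that passed the filter, had 7, 4 and 1 counts in J110 and 14, 10 and 17 in SSM3, with no overlap (log2 fold change 1.82, SE 0.47, adjusted p = 0.00207). Without J110 replicate 1 its log2 fold change was 2.43 (edgeR adjusted p = 0.00171), and without J110 replicate 3 it was 1.39 (edgeR adjusted p = 0.0144). Tested against a fold change of 2, Il17d kept its call at a glmTreat adjusted p of 0.0435. In the same family Il17re, the receptor gene for Il17c, had 1, 0 and 4 counts in J110 and 505, 580 and 602 in SSM3 (log2 fold change 8.37, SE 0.24, adjusted p = 1.46e-14), although Il17c itself had no count. Most J110 counts of Il17re fell in replicate 3, the J110 library with the most counts of genes from SSM3. Their part in the fold change was not tested.

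Both ligands of the macrophage receptor Csf1r fell in SSM3. The libraries held 316, 330 and 297 counts in J110 and 27, 21 and 15 in SSM3 for Csf1 (ENSMUSG00000014599, chromosome 3 from 107741048 to 107760469, reverse strand). The lines were widely apart, at 62.7 ± 2.27 against 4.49 ± 1.51 CPM (SD, n = 3 each; log2 fold change -3.81, SE 0.17, adjusted p = 4.08e-12). For Il34 (ENSMUSG00000031750, chromosome 8 from 110741829 to 110805924, reverse strand) they held 107, 95 and 92 counts in J110 and 1, 1 and 1 in SSM3, a ratio of 92.7 (95% exact binomial interval 31.4 to 452). Il34 shares 22 and 75 exon bases with Gm15894 and Gm15895, which had at most 6 counts in a library. The 250 bases before the RefSeq start of Csf1, on the reverse strand of chr3:107760470-107760719, are shown because Csf1 had the highest mean of all members in J110. They held a single match to the NF-κB letters, in capitals, beginning 154 bases before the start.
Csf1: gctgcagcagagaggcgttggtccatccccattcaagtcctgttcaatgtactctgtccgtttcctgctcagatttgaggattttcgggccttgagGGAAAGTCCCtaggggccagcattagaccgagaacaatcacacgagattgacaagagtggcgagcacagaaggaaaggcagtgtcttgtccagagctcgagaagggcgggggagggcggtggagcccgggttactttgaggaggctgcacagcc

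Csf1r had 64, 82 and 69 counts in J110 and 61, 73 and 68 in SSM3, which overlapped (adjusted p = 0.955). These counts are uncertain, since Csf1r shares 873 exon bases with Hmgxb3 on the opposite strand, and Hmgxb3 had the same count as Csf1r in 5 of 6 libraries. The leukocyte markers Adgre1 and Itgam had no count. The sum of all 12 leukocyte markers was 49 to 64.9 CPM in J110 and 20.3 to 27.2 in SSM3, most of it from Csf1r, Cd14 and Cd68, and the other 9 held 1 to 10 counts per library. The part of these markers in the values of Csf1 and Il34 was not tested. Csf3, the granulocyte factor, had 5, 6 and 3 counts in J110 and none in SSM3, and its receptor gene Csf3r had no count. Csf2, which acts on granulocytes and macrophages, had a single count in each J110 library. Csf2ra, the binding chain gene for Csf2, rose, with 3, 1 and 1 counts in J110 and 81, 134 and 95 in SSM3, a ratio of 65.5 (95% exact binomial interval 27.8 to 203). The signalling chain gene Csf2rb had at most 2 counts in a library.

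**Figure D4:**
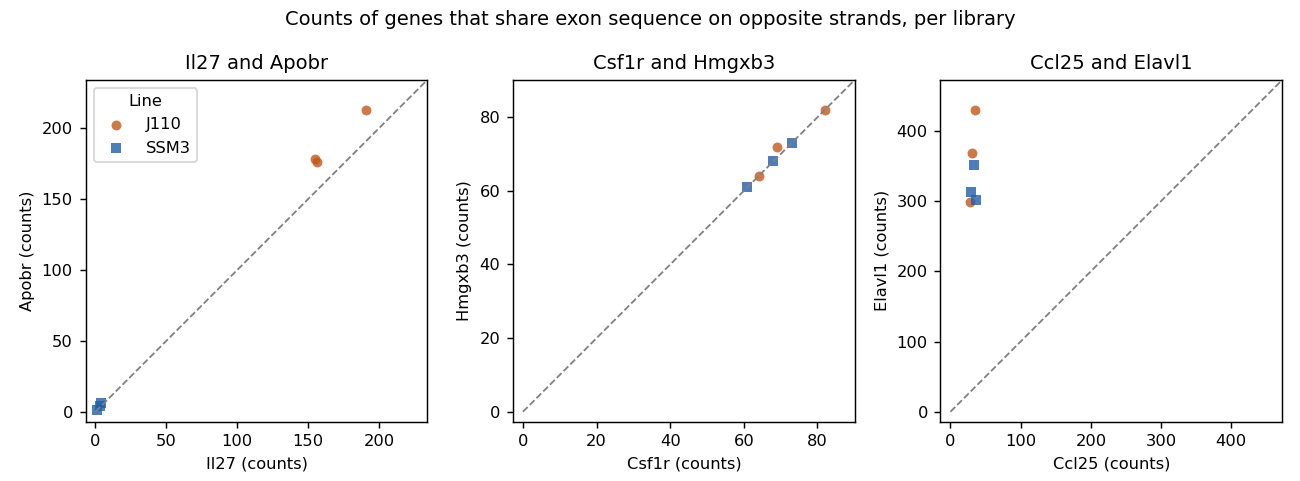
Counts of Il27, Csf1r and Ccl25 (horizontal axes) against those of the gene that shares exon bases with each on the opposite strand (vertical axes), with 1 point per library labelled J110 (circles) or SSM3 (squares) and a dashed line where counts are equal. Csf1r and Hmgxb3 lie on the line in 5 of 6 libraries, Il27 and Apobr lie near it, and Elavl1 far exceeds Ccl25.

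Of the members without further mention, those at the floor were Ccl1, Ccl6, Ccl20, Ccl28, Cxcl17, Il2, Il5, Il15, Il16, Il17b, Il17f, Il19 and Il23a. Those with no count were Ccl3, Ccl4, Ccl11, Ccl12, Ccl19, Ccl21a, Ccl21b, Ccl22, Ccl24, Ccl26, Cxcl13, Il3, Il9, Il10, Il12a, Il12b, Il13, Il17a, Il20, Il21, Il22, Il25 and Il31. Many of these are made by activated lymphocytes or myeloid cells. Some, among them Il5, Il16 and Il21, share exon bases with a gene on the opposite strand, so their low values are uncertain.

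The receptors listed numbered 71, of which 30 passed the filter. Of these, 16 were called higher and 10 lower in SSM3, 86.7% in all, where 77.9% of all genes tested were called. The median log2 fold change was 0.99. Nothing is read from these values, since a receptor that passes the filter through the line where it is high has to differ. Il1rl1, Il1rl2, Il5ra, Ackr3, Ccr1 and Il17rd are named for their fitted fold changes, which for a gene at 0 in a line depend on the prior count, so no order of size is read from them. Ackr3, which encodes a scavenging chemokine receptor, had 692, 673 and 653 counts in J110 and 0, 2 and 0 in SSM3, a ratio of 955 (95% exact binomial interval 264 to 7890). Il17rd, whose product modulates FGF and interleukin-17 signalling, had 62, 70 and 64 counts in J110 and 1, 0 and 0 in SSM3, a ratio of 185 (interval 32.9 to 7360). Il5ra, the interleukin-5 binding chain gene, had no count in J110 and 52, 50 and 53 in SSM3, at least 17.4-fold higher.

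Several receptors above signal through NF-κB. Of 27 NF-κB genes listed, 26 were tested, and 9 were called higher, 10 lower and 7 neither, where 38.6% of all genes tested were higher and 39.2% lower. The 73.1% called in all is near the 77.9% of all genes tested, so nothing is read from these counts, and the median log2 fold change was -0.08. Bcl3, which encodes an atypical IκB protein, had 6, 7 and 9 counts in J110 and 625, 538 and 741 in SSM3 (log2 fold change 6.49, SE 0.18, adjusted p = 9.82e-15). Tnfaip3, the gene of the NF-κB inhibitor A20, had 133, 123 and 95 counts in J110 and 5, 3 and 5 in SSM3 (log2 fold change -4.63, SE 0.27, adjusted p = 1.26e-10). Among NF-κB subunits, Rel was lower (log2 fold change -1.90, SE 0.33, adjusted p = 6.2e-05) and Rela higher (log2 fold change 1.13, SE 0.09, adjusted p = 7e-09). Nfkbia, which encodes IκBα, was higher (log2 fold change 0.55, SE 0.08, adjusted p = 6.03e-06), and the kinase gene Irak1 lower (log2 fold change -0.65, SE 0.08, adjusted p = 2.82e-06).

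Of 17 JAK-STAT genes, 16 were tested, and 12 were called higher and 2 lower in SSM3, where 38.6% of all genes tested were higher and 39.2% lower. The median log2 fold change was 1.9. Cish, a feedback inhibitor of STAT5, had 10, 4 and 8 counts in J110 and 230, 203 and 239 in SSM3 (log2 fold change 4.99, SE 0.22, adjusted p = 2.82e-12), and shares exon bases with Gm17041, which had 1, 1 and 1 counts in J110 and 99, 75 and 77 in SSM3. Stat5a had 28, 34 and 17 counts in J110 and 525, 520 and 562 in SSM3 (log2 fold change 4.42, SE 0.14, adjusted p = 5.78e-14). It shares 72 exon bases with Stat3 on the opposite strand, which rose too, with 235, 215 and 208 counts in J110 and 1386, 1307 and 1363 in SSM3 (log2 fold change 2.71, SE 0.09, adjusted p = 5.3e-14), so the value of each is uncertain. The kinase gene Jak2 rose (log2 fold change 3.62, SE 0.09, adjusted p = 1.53e-15), as did Socs2, a feedback inhibitor (log2 fold change 1.90, SE 0.07, adjusted p = 4.85e-13).

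**Figure D5:**
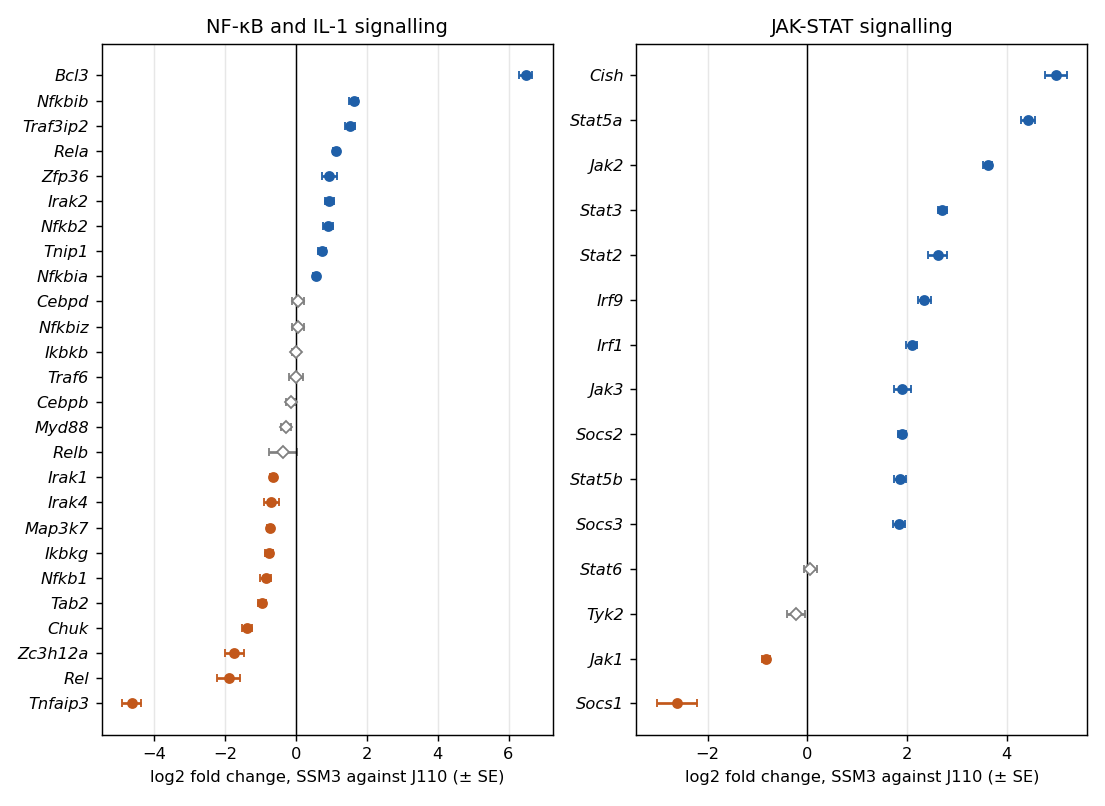
Log2 fold changes, SSM3 against J110, with standard errors for the 26 NF-κB and interleukin-1 signalling genes (left) and 15 JAK-STAT genes (right) among those tested. Filled circles have an adjusted p below 0.05 and open diamonds do not. NF-κB genes lie on both sides, and 11 of the 15 JAK-STAT genes are filled circles to the right.

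Genes that cut or release interleukin-1 family precursors were mostly at low counts. Casp1, the caspase that cuts Il18, had 2, 1 and 4 counts in J110 and 1, 0 and 1 in SSM3. Gsdmd, whose product forms the pore through which they leave the cell, had 32, 17 and 38 counts in J110 and 0, 0 and 2 in SSM3, a ratio of 41.2 (95% exact binomial interval 11.1 to 345). Naip2, an inflammasome sensor, had 32, 28 and 20 counts in J110 and none in SSM3, at least 7.92-fold lower. The sensor gene Aim2 went the other way, with 68, 85 and 73 counts in J110 and 149, 154 and 182 in SSM3 (log2 fold change 1.18, SE 0.14, adjusted p = 8.65e-07). The calpain genes differed in direction, Capn2 being lower (log2 fold change -1.40, SE 0.07, adjusted p = 1.36e-11) and Capn1 higher (log2 fold change 0.77, SE 0.12, adjusted p = 2.37e-05) in SSM3. Of 11 genes listed, 5 were tested, and 2 were called higher and 3 lower, beside 38.6% and 39.2% of all genes tested. As with the members, nothing is read from these counts.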

How the data were processed

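RNA from 3 biological replicates each of J110 and SSM3 cells was made into QuantSeq 3′ libraries. The authors trimmed reads with cutadapt (v 2.1), mapped them to mm10 with HISAT2 (v 2.0.4), counted them with featureCounts of Subread (v 2.0.0) and deposited raw counts for 52636 Ensembl genes. The strand setting and the treatment of overlapping genes are not given in the sources used here. Symbols (52403 genes matched, 99.6%), coordinates and shared exons came from the GENCODE annotation of GRCm38, and upstream sequences from RefSeq (GRCm38.p6).

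Low counts were removed with filterByExpr, and TMM-scaled counts went into the quasi-likelihood test of edgeR 4.0.16 in R 4.3.3, with Benjamini-Hochberg adjustment over 12284 genes and a threshold of 0.05. The SE is the log2 fold change over the root of F. Libraries held 4200785 to 5416305 counts, and replicates differed by more than sampling noise (chi-square per degree of freedom 2.21 to 5.62). Where a line had no count, the fold was taken against 3 counts per library. Where it had a few, a ratio of summed counts with an exact binomial interval is given. The procedure was tested on simulated data.

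Members and gene lists were chosen with earlier results of these data known. Named were all members that passed the filter or exceeded 3 counts in a library, their receptors apart from items not reported here, the 3 receptors with the largest fitted change in each direction, and in each signalling list the 3 genes with the highest mean CPM and the 3 with the largest change. Ppbp, Pf4, Gm43085, Il1r1, Il1rn, Il6ra, Il11ra1, Il17re, Csf2ra, Csf2rb, Sigirr, Casp1 and the overlapping genes were added once their values were known. The 18 alternatives covered scaling, filters, DESeq2 1.42.0, limma-voom (limma 3.58.1), glmTreat, a threshold of 0.01, a replicate block and left-out libraries.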

Additional observations from a re-analysis of the deposited data

How the results depend on the processing

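Other scalings, DESeq2 and limma-voom left the counts of cytokine genes called at 5 higher and 8 lower in SSM3, whereas the filter moved them. With at least 1 count in any library 16 were lower. With at least 10 counts in every library, which leaves out genes at 0 in a line, 2 were higher and 1 lower, and 4 receptor genes were higher and 3 lower. Testing against a fold change of 2 with glmTreat left 3 cytokine genes higher, 14 signalling genes higher and 8 lower, and 4272 genes called in all, and Cxcl16, Cx3cl1, Lif and Il24 lost their calls. The log2 fold change of Ccl2 was 0.088 with library size as the only scaling, 0.231 without J110 replicate 2, 0.036 without SSM3 replicate 2 and 0.194 without SSM3 replicate 3, in a range of -0.565 to 0.231 over single left-out libraries. Leaving out each library in turn gave 4 to 5 cytokine genes higher and 8 to 8 lower, 15 to 16 receptor genes higher and 10 to 11 lower, 22 to 23 signalling genes higher and 15 to 16 lower, and 9275 to 9572 genes in all. Without J110 replicate 3 and SSM3 replicate 2 together, 5 cytokine genes were higher and 8 lower, and Irak4 lost its call (edgeR adjusted p = 0.0703). Scaling by library size alone moved the median over all genes from -0.014 to 0.161 on the log2 scale and ended the call of Il17ra, gave a call to Il10rb (edgeR adjusted p = 0.0183) and turned the direction of Traf6, Cebpb, Ikbkb and Csf1r, none of them called. Replicates that share a number did not deviate together (correlations 0.012 to 0.027), although each library correlated best with its own number. With the replicate number as a block, 5 cytokine genes were higher and 8 lower, and 9481 genes were called in all. Levels under 0.578 to 0.668 CPM, the floor of 3 counts, were not detectable at this depth.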

Other observations

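Cytokines related to these families but outside the symbol rule were looked at as a list of 21, chosen after the members' values were known. Of the 9 that passed the filter, 4 were called higher and 5 lower in SSM3, where 38.6% and 39.2% of all genes tested were. As with the members, nothing is read from these counts. Clcf1, a gp130 cytokine, had 110, 101 and 86 counts in J110 and 8, 19 and 17 in SSM3 (log2 fold change -2.67, SE 0.24, adjusted p = 2.51e-08 from edgeR). Ctf1, another cytokine of this kind, had no count in J110 and 34, 23 and 21 in SSM3, at least 8.86-fold higher, but shares 87 exon bases with Ctf2, which had 19 to 28 counts in SSM3, so its value is uncertain. Kitl, the ligand of the KIT receptor, was lower in SSM3 (log2 fold change -0.67, SE 0.08, adjusted p = 1.28e-06 from edgeR), with 710, 643 and 630 counts in J110 and 384, 397 and 401 in SSM3. Mif, the macrophage migration inhibitory factor, was higher in SSM3 (log2 fold change 1.31, SE 0.07, adjusted p = 2.87e-11 from edgeR), with 3176, 2859 and 2800 counts in J110 and 6441, 7176 and 7033 in SSM3. Ebi3, which encodes the partner subunit of Il27, had 2 counts in all, none of them in J110. Osm, Ifnb1 and Xcl1 had no count.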
